A study of Mus musculus with 2 samples.

Results

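The 10 genes described here encode cyclins, kinases and their partners that drive the meiotic divisions: Ccna1, Ccnb1, Ccnb2, Cdk1, Cks2, Aurka, Cdc25c, Nek2, Plk1 and Cdca8. They were chosen by gene symbol, all 10 were present, and they are 10 of the 32285 genes counted. The study profiled dissociated whole testis of mice with no intact copy of the protamine 2 gene (Prm2 -/-, 1 library) and of mice with 1 intact copy (Prm2 +/-, 1 library), so no wild-type testis was compared. Age, strain, the number of mice and the altered part of Prm2 are not given in the sources used here. Per the labels, a wash meant to deplete Leydig cells preceded loading.

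Entry into a division needs Cdk1 bound to an A- or B-type cyclin and to a small Cks protein, with an inhibitory phosphate removed by a Cdc25 phosphatase. Polo-like, Aurora and NIMA-related kinases then build the spindle and couple chromosomes to it. In the male germ line a long pachytene stage precedes these events, a pair of divisions follows in quick succession, and the haploid round spermatids that result do not divide again.

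The Prm2 -/- library held 22885 barcodes with a median of 3716 UMIs (unique molecular identifiers, which tag single RNA molecules), and the Prm2 +/- library 15210 barcodes with a median of 1882.5. Of the barcodes, 88 occurred in both libraries. After filtering, 20220 and 13543 cells remained. Cells were grouped into 38 clusters without using the 10 genes, and clusters were called like a cell type from markers. The germ cell classes held, in the Prm2 -/- and Prm2 +/- libraries, 712 and 201 spermatogonia-like cells, 921 and 383 early-spermatocyte-like, 742 and 401 pachytene-like, 1346 and 793 diplotene-to-secondary-like, 5099 and 2577 round-spermatid-like, and 2775 and 1698 elongating-spermatid-like cells. Another 34.2% of Prm2 -/- cells and 43.2% of Prm2 +/- cells lay in 11 clusters that stayed unnamed. In elongating-spermatid-like cells Prm2 had 9.38 CPM (UMIs of a gene per 1000000 UMIs of its class) in the Prm2 -/- library and 43202 CPM in the Prm2 +/- library, in the direction of the labels. Sertoli-like cells of the Prm2 +/- library, which should lack Prm2, had 10545 CPM, so RNA from spermatids was present in cells of other types. Since each genotype is 1 library, differences between genotypes were not checked against replicates, and the intervals given (95%) cover counting error only.

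In the mm10 build (GENCODE M21) the cyclin genes are Ccna1 at chr3:55045469-55055501 (minus strand), Ccnb1 at chr13:100778650-100786570 (minus strand) and Ccnb2 at chr9:70407692-70421547 (minus strand). The kinase they activate and its small partner are Cdk1 at chr10:69335146-69352938 (minus strand) and Cks2 at chr13:51645232-51650660 (plus strand). The other kinase genes are Aurka at chr2:172356190-172370535 (minus strand), Nek2 at chr1:191821444-191833050 (plus strand) and Plk1 at chr7:122159439-122169873 (plus strand). The passenger gene Cdca8 lies at chr4:124918465-124939311 (minus strand). Each gene was counted as a whole from reads near its 3′ end, so exons and isoforms were not told apart.

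Promoters of 9 of the 10 genes, all but Cdc25c, were read from RefSeq (GRCm38.p6, the 250 bases before the annotated start). Genes of the divisions are known for CCAAT boxes, bound by NF-Y, and for the cell cycle homology region (CHR), bound by the DREAM and MuvB complexes. The letters CCAAT, on either strand, occurred in 9 of 9 of these promoters, against 34.5% of 27025 promoters of the same length. A CHR (TTTGAA or TTTAAA, either strand) occurred in 4 of 9, those of Ccnb1, Ccnb2, Cdk1 and Plk1, against 25.5% of all promoters. All 4 also held CCAAT, as all 9 promoters did, so the share of all promoters with both (8.995%) adds no further comparison. Among the other motifs searched, on either strand, AACTG occurred in 3 of 9 (39.1% of all), TGACG in 1 of 9 (17.9%) and GCGGGAA in 0 of 9 (3.84%). A match is a description of letters and not a binding site. The 4 promoters that lie wholly outside the annotated extent of their gene, 2 with a CHR (Ccnb2 and Plk1) and 2 without (Cks2 and Aurka), are shown 5′ to 3′ on the strand of the gene, with CCAAT and CHR matches in capitals, so that both kinds can be compared.
Ccnb2 (chr9:70421555-70421804, minus strand): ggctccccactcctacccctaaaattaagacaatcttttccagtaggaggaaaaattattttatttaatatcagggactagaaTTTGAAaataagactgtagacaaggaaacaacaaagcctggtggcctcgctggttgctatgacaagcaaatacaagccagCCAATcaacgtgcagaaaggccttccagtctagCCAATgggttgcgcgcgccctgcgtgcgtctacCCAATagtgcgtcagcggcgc
Plk1 (chr7:122159185-122159434, plus strand): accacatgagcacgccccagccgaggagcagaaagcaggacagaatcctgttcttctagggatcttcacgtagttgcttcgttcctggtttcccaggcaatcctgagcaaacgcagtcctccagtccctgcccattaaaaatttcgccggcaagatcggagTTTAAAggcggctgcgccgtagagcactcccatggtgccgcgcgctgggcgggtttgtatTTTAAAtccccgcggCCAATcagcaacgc
Cks2 (chr13:51644982-51645231, plus strand): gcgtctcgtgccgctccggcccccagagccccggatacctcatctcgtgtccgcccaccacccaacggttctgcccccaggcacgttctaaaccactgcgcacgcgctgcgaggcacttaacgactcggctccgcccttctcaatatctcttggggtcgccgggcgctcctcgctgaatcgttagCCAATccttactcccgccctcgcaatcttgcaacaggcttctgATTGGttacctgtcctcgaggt
Aurka (chr2:172370571-172370820, minus strand): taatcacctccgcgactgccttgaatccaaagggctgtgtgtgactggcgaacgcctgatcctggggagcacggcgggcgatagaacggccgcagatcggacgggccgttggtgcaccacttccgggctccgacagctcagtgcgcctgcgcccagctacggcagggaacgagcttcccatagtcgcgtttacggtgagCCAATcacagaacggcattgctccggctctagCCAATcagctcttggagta
The CCAAT match nearest to the start lay 17 bases before it in Ccnb2, 10 in Plk1, 18 in Cks2 and 15 in Aurka. The nearest CHR match lay 162 bases before the start in Ccnb2, upstream of its CCAAT matches, and 24 in Plk1. For Ccnb2, Plk1 and Aurka the bases after the RefSeq start were not found near the start of a GENCODE transcript of the gene. Distances in these genes are thus uncertain.

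Most members were highest late in meiosis. Of the 9 members that reached 50 CPM in some germ cell class, 7 in the Prm2 -/- library and 8 in the Prm2 +/- library had their highest level in diplotene-to-secondary-like cells, against 18.3% and 17.3% of all genes at that level. Cks2 was highest in pachytene-like cells in both libraries. Ccnb1 was highest in spermatogonia-like cells in the Prm2 -/- library and in diplotene-to-secondary-like cells in the Prm2 +/- library, while 3 other settings put it in diplotene-to-secondary-like cells in both. Cdca8 was highest in pachytene-like cells under 4 other settings in the Prm2 -/- library. In the Prm2 +/- library it was so under 8, every other setting compared except equal weight per cluster. Cdk1 of the Prm2 +/- library was highest in early-spermatocyte-like cells under 3, so the counts of 7 and 8 rest partly on the setting. Cdc25c never reached 50 CPM and was highest in round-spermatid-like cells in both.

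**Figure D1:**
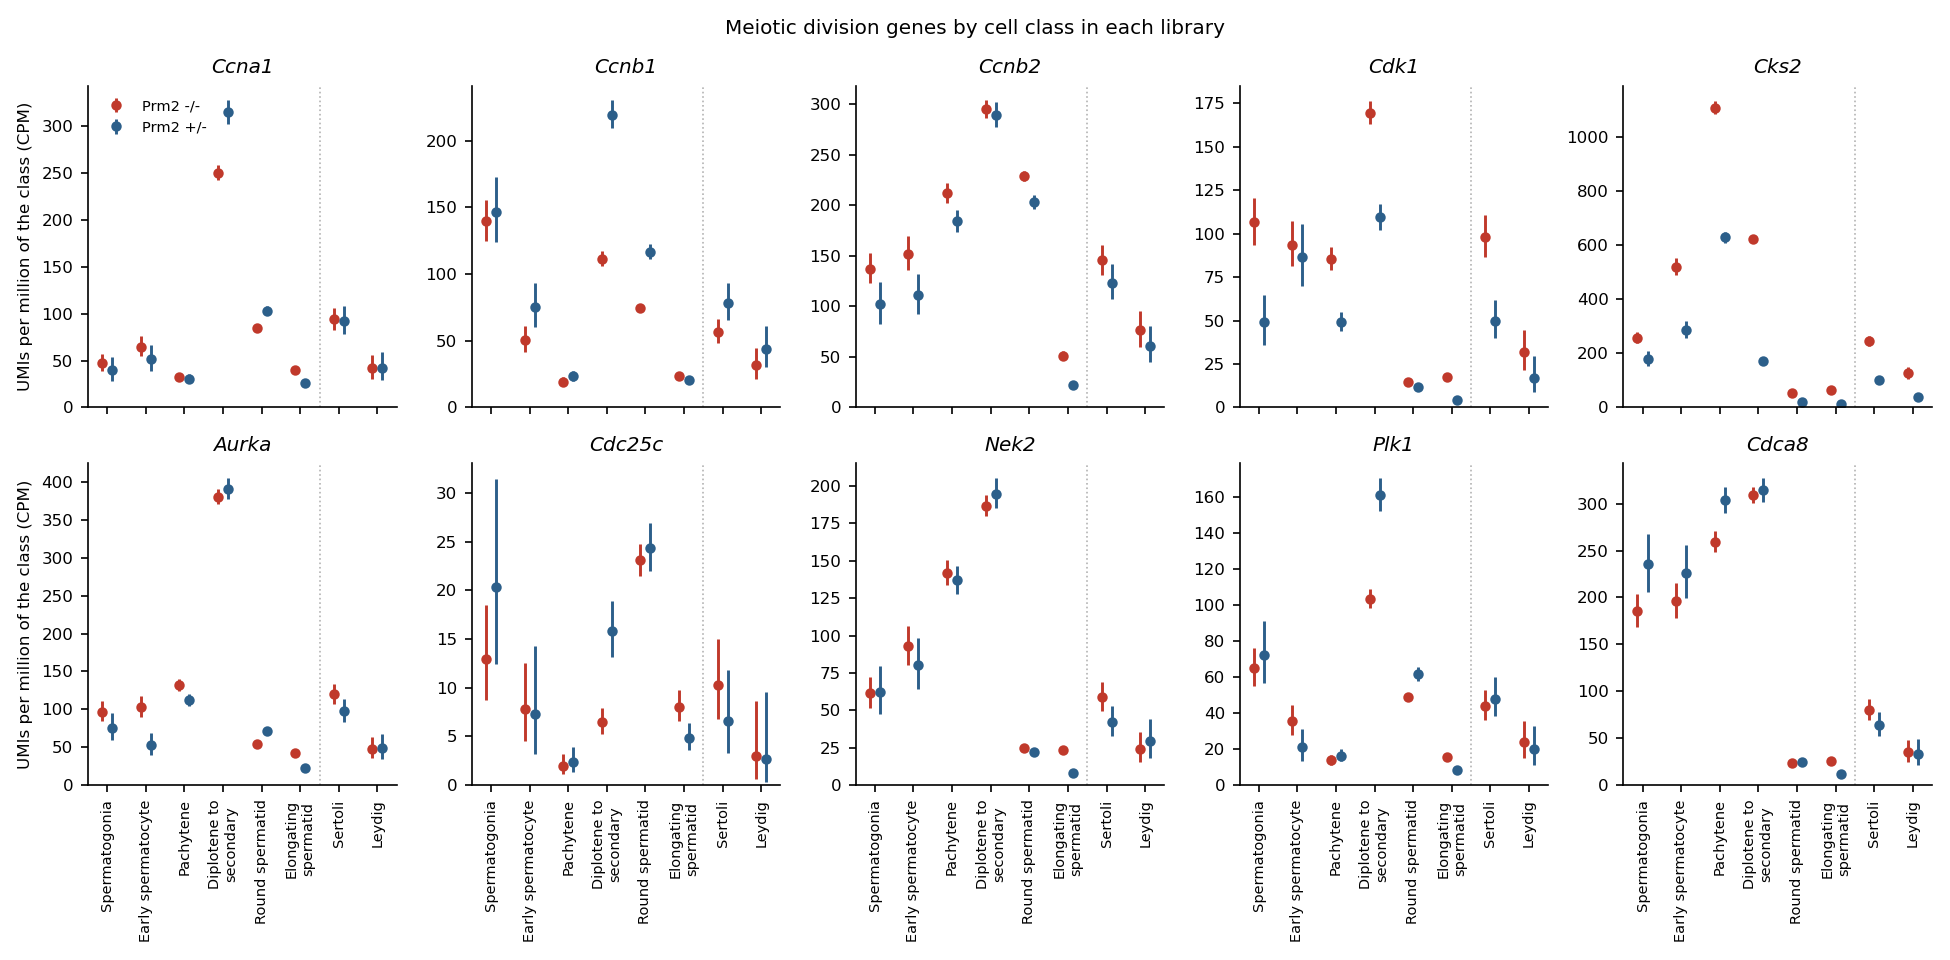
CPM (linear axis from 0) of each member in the 6 germ cell classes and, right of the dotted line, in Sertoli-like and Leydig-like cells, with red points for the Prm2 -/- library, blue points for the Prm2 +/- library and bars for exact Poisson 95% intervals. Ccna1 and Aurka stand out in the diplotene-to-secondary-like class, Cks2 in the pachytene-like class, and Ccnb2 stays high in round-spermatid-like cells.

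Among the cyclins, Ccna1, the A-type cyclin of male germ cells that mouse spermatocytes need to enter the first division, had 251 CPM (243 to 259) in diplotene-to-secondary-like cells of the Prm2 -/- library and 315 CPM (303 to 328) in the Prm2 +/- library. In pachytene-like cells it had 32.8 and 30.9 CPM, and in round-spermatid-like cells 85.2 and 103 CPM. Its level was thus several-fold higher after pachytene in both libraries.

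Ccnb1, the B-type cyclin that also drives mitosis, had 2 high classes. Spermatogonia-like cells had 139.6 CPM (125 to 156) in the Prm2 -/- library and 147 CPM (124 to 173) in the Prm2 +/- library, and diplotene-to-secondary-like cells had 111 CPM (106 to 117) and 219.5 CPM (209 to 230.3). It was low between them, at 19.4 and 23.2 CPM in pachytene-like cells. Ccnb1 has 5 annotated copies at least 95% identical over part of its 3′ end that were not among the counted genes, so its values are uncertain where reads of these could be assigned to it.

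Ccnb2, the other B-type cyclin, was high from pachytene-like to round-spermatid-like cells. In early-spermatocyte-like cells it had 152 CPM in the Prm2 -/- library and 111 CPM in the Prm2 +/- library, near its Sertoli-like levels of 146 and 124 CPM. It had 212 CPM in pachytene-like cells of the Prm2 -/- library and 184 CPM in the Prm2 +/- library, 295 CPM (287 to 304) and 289.9 CPM (278 to 302) in diplotene-to-secondary-like cells, and 229 CPM (224 to 234) and 203 CPM (196 to 210.4) in round-spermatid-like cells. Ccnb2 was the cyclin whose level differed least between the last meiotic class and round-spermatid-like cells.

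Cdk1, the kinase that these cyclins activate, had 169 CPM (163 to 176) in diplotene-to-secondary-like cells of the Prm2 -/- library and 109.6 CPM (102 to 117) in the Prm2 +/- library. In round-spermatid-like cells it had 14.8 and 11.6 CPM. Its transcript was therefore low in the class where Ccnb2 was still high.

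Cks2, the small subunit that docks Cdk1 complexes onto phosphorylated substrates and that mouse germ cells need to leave the first meiotic metaphase, had 1110.0 CPM (1087 to 1134) in pachytene-like cells of the Prm2 -/- library and 630.0 CPM (611 to 649.9) in the Prm2 +/- library. In diplotene-to-secondary-like cells it had 625 CPM (612 to 638) and 172 CPM (163 to 182), and in round-spermatid-like cells 55.3 and 21.1 CPM. Its highest class came before the class where most other members were highest, and there it was lower. Ccnb1 of the Prm2 -/- library was highest in an earlier class, and the highest class of Cdca8 and Cdk1 depended on the setting. Cks2 has 4 copies at least 95% identical over part of its 3′ end that were not among the counted genes, with the same uncertainty.

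Cdc25c, a phosphatase that removes the inhibitory phosphate of Cdk1, had 23.1 CPM (21.5 to 24.8) in round-spermatid-like cells of the Prm2 -/- library and 24.4 CPM (22.0 to 26.9) in the Prm2 +/- library. In diplotene-to-secondary-like cells it had 6.51 CPM (5.27 to 7.94) and 15.8 CPM (13.1 to 18.9), and in pachytene-like cells 1.93 and 2.39 CPM. Cdc25c overlaps a gene on the opposite strand, Gm3550, and its counts rest on 1531 UMIs over all kept cells of the Prm2 -/- library and 891 of the Prm2 +/- library.

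Among the kinases, Aurka, which matures centrosomes and builds spindle poles, had 381 CPM (371 to 391) in diplotene-to-secondary-like cells of the Prm2 -/- library and 391 CPM (377 to 405) in the Prm2 +/- library. In pachytene-like cells it had 131 and 112 CPM. Plk1, the polo-like kinase that acts at centrosomes, kinetochores and the cleavage plane, had 104 CPM (98.4 to 109) in the Prm2 -/- library and 161 CPM (153 to 171) in the Prm2 +/- library in the same class, against 13.8 and 16.2 CPM in pachytene-like cells. Both kinases were several-fold higher after pachytene in each library.

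Nek2, the NIMA-related kinase that separates centrosomes, and Cdca8 (borealin), a scaffold of the chromosomal passenger complex, were already high in pachytene-like cells. Nek2 had 142 CPM there in the Prm2 -/- library and 137 CPM in the Prm2 +/- library, and 187 CPM (180.1 to 194) and 195 CPM (185 to 205) in diplotene-to-secondary-like cells. Cdca8 had 259 and 304 CPM in pachytene-like cells and 309 CPM (300.2 to 318) and 314 CPM (302 to 327) in diplotene-to-secondary-like cells. The Prm2 +/- values of Cdca8 in the pair of classes have overlapping intervals. Nek2 and Cdca8 each overlap an opposite-strand gene (Gm38037 and 9930104L06Rik), as does Ccna1 (4931419H13Rik).

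Sertoli-like cells, which do not divide in the adult testis, were used as a guide to the level that free RNA can produce. In them Cks2 had 246 CPM in the Prm2 -/- library and 100.3 CPM in the Prm2 +/- library, Ccnb2 146 and 124 CPM, Aurka 119.6 and 97.3 CPM, and Ccna1 94.1 and 92.5 CPM. The level differs between cell types. Leydig-like cells had less, with Ccnb2 at 76.3 and 60.8 CPM, Aurka at 47.5 and 48.9 CPM, and Ccna1 at 41.6 and 42.3 CPM. In elongating-spermatid-like cells 10 of 10 members were below their Sertoli-like level in both libraries. In round-spermatid-like cells 4 members were above it in the Prm2 -/- library (Ccnb1, Ccnb2, Cdc25c and Plk1) and 5 in the Prm2 +/- library (the same 4 and Ccna1). In diplotene-to-secondary-like cells 9 of 10 were above it in the Prm2 -/- library and 10 of 10 in the Prm2 +/- library. The remaining members were thus at or under the level of Sertoli-like cells in spermatids. This reading rests on the cells compared. Aurka in round-spermatid-like cells (53.9 and 70.9 CPM) was under its Sertoli-like level but above its Leydig-like level in both libraries.

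The order of the members was finer between clusters. From pachytene-like to round-spermatid-like cells, 10 clusters were ordered by the difference between their pachytene and round spermatid marker scores. This order places cells by marker RNA and not by measured time, and cluster 14 among them was unnamed. The round-spermatid-like clusters 2 and 3, whose median UMIs per cell were 1727 and 1359 in the Prm2 -/- library and 1663 and 1508 in the Prm2 +/- library, were left out of the series. The unnamed clusters other than 14 were left out too. Of these, clusters 9, 17, 20 and 25 have scores between those of clusters 30 and 14, so the step from 30 to 14 skips them. Cks2 was highest in the first of these clusters (cluster 15) in both libraries. Cdca8 was highest 2 places later (cluster 12), at 326 CPM in the Prm2 -/- library and 376 CPM in the Prm2 +/- library. Aurka and Cdk1 were highest in cluster 11, Aurka at 506 and 434 CPM and Cdk1 at 224 and 129.7 CPM.

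Ccnb1 was highest in cluster 30, the next in the order, at 246 CPM in the Prm2 -/- library and 320.1 CPM in the Prm2 +/- library. Ccna1 and Plk1 were highest in cluster 11 in the Prm2 -/- library (373 and 181 CPM) and in cluster 30 in the Prm2 +/- library (362 and 200.2 CPM). Nek2 went the other way, with 244 CPM in cluster 30 of the Prm2 -/- library and 209.6 CPM in cluster 11 of the Prm2 +/- library. Neighbouring values of these genes in clusters 11 and 30 are close, and cluster 30 held 99 cells of the Prm2 -/- library and 278 of the Prm2 +/- library.

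The decline also differed between members. In cluster 14, the next of the clusters kept in the series, Cdca8 was at 16.5% of its highest level in the Prm2 -/- library and 14.9% in the Prm2 +/- library. Cdk1 was at 17.7% and 31.0%. In the same cells Ccnb1 was at 78.2% and 76.8%, Plk1 at 82.8% and 73.2%, and Ccnb2 at 100.0% and 98.6%. Transcripts of the B-type cyclins and of Plk1 were thus still near their highest level in cells where those of Cdk1 and Cdca8 were low, in both libraries. Cdc25c was highest in cluster 19, an early round-spermatid-like cluster, at 30.2 and 27.7 CPM.

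**Figure D2:**
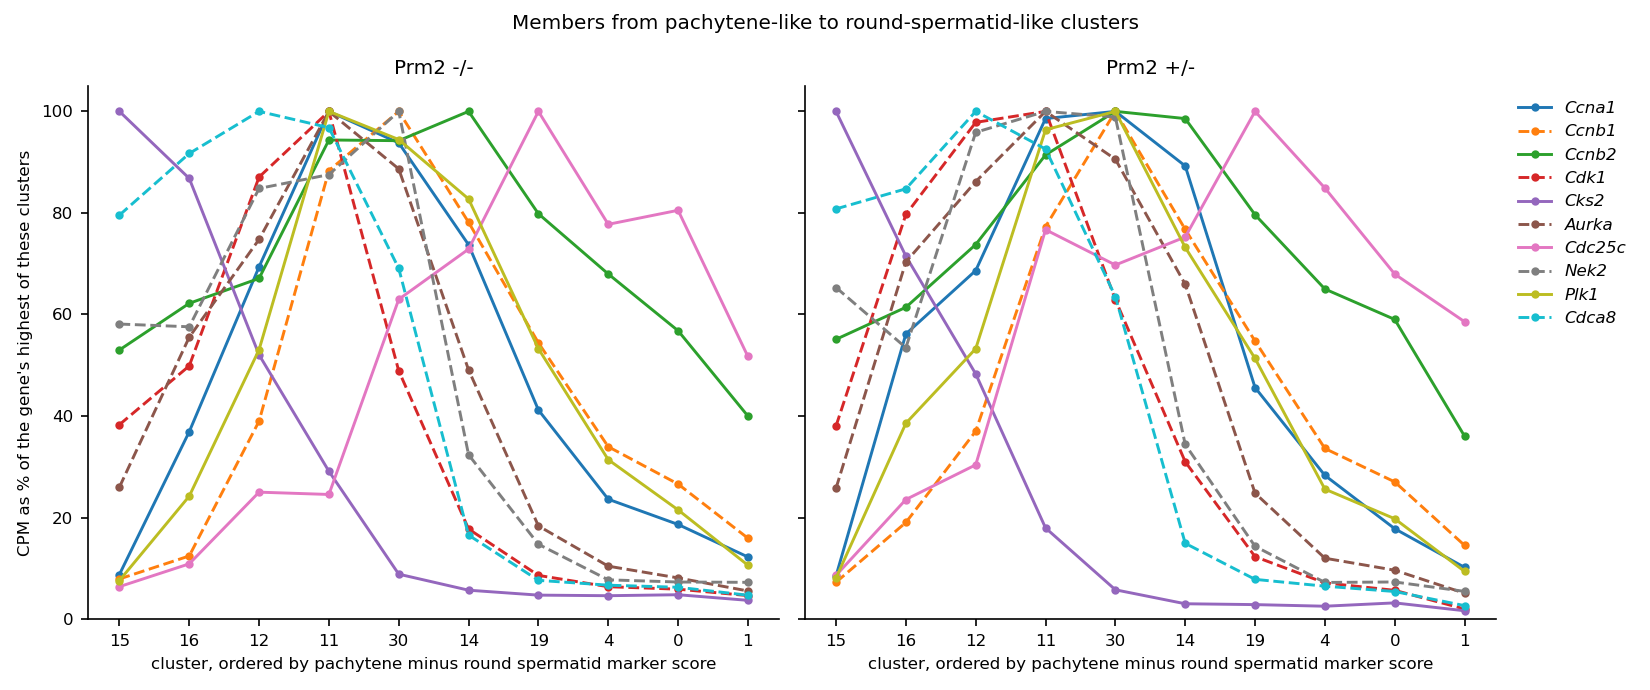
CPM of each member as a percentage of its own highest value over the 10 clusters, in the Prm2 -/- library (left) and the Prm2 +/- library (right), with clusters ordered from pachytene-like to round-spermatid-like by marker score. Cks2 starts at 100% and declines, and the other members except Cdc25c peak in clusters 12, 11, 30 or 14. Ccnb2 peaks in cluster 14 in the Prm2 -/- library and in cluster 30 in the Prm2 +/- library. Cdc25c peaks in the round-spermatid-like cluster 19 in both.

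Shares of cells were compared after thinning each cell to 2000 UMIs, which left out 160 of the 1346 diplotene-to-secondary-like cells of the Prm2 -/- library and 163 of the 793 of the Prm2 +/- library. Aurka had a UMI in 51.9% of the Prm2 -/- cells (49.0 to 54.7%) and 51.6% of the Prm2 +/- cells (47.6 to 55.5%), against 14.1% and 13.3% of Sertoli-like cells. Ccna1 had one in 36.4% and 45.9%, against 14.6% and 11.7% of Sertoli-like cells. At least 3 of the 10 genes were detected together in 71.6% of the Prm2 -/- and 65.7% of the Prm2 +/- diplotene-to-secondary-like cells, and in 16.1% and 10.8% of Sertoli-like cells.

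The interval of the share lay above that of Sertoli-like cells for 9 of 10 members in the Prm2 -/- library (all but Cdc25c) and for 7 of 10 in the Prm2 +/- library (all but Cdk1, Cks2 and Cdc25c). Cks2 had a UMI in 58.9% of Prm2 -/- cells (56.1 to 61.8%) and 19.5% of Prm2 +/- cells (16.5 to 22.8%), against 31.9% and 24.2% of Sertoli-like cells. The thinned share of Cks2 thus did not set the Prm2 +/- class apart from Sertoli-like cells. Before thinning the share was 76.4% and 42.2% in the class and 34.8% and 11.8% in Sertoli-like cells, and the CPM of the class, 625 and 172, lay above the 246 and 100.3 CPM of Sertoli-like cells in both libraries. Median depths were 9412 and 8155 UMIs in the class and 1569 and 963 UMIs in Sertoli-like cells, of which 630 and 1121 were too shallow for thinning, so the Sertoli-like share of the Prm2 +/- library rests on its deepest 120 cells.

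**Figure D3:**
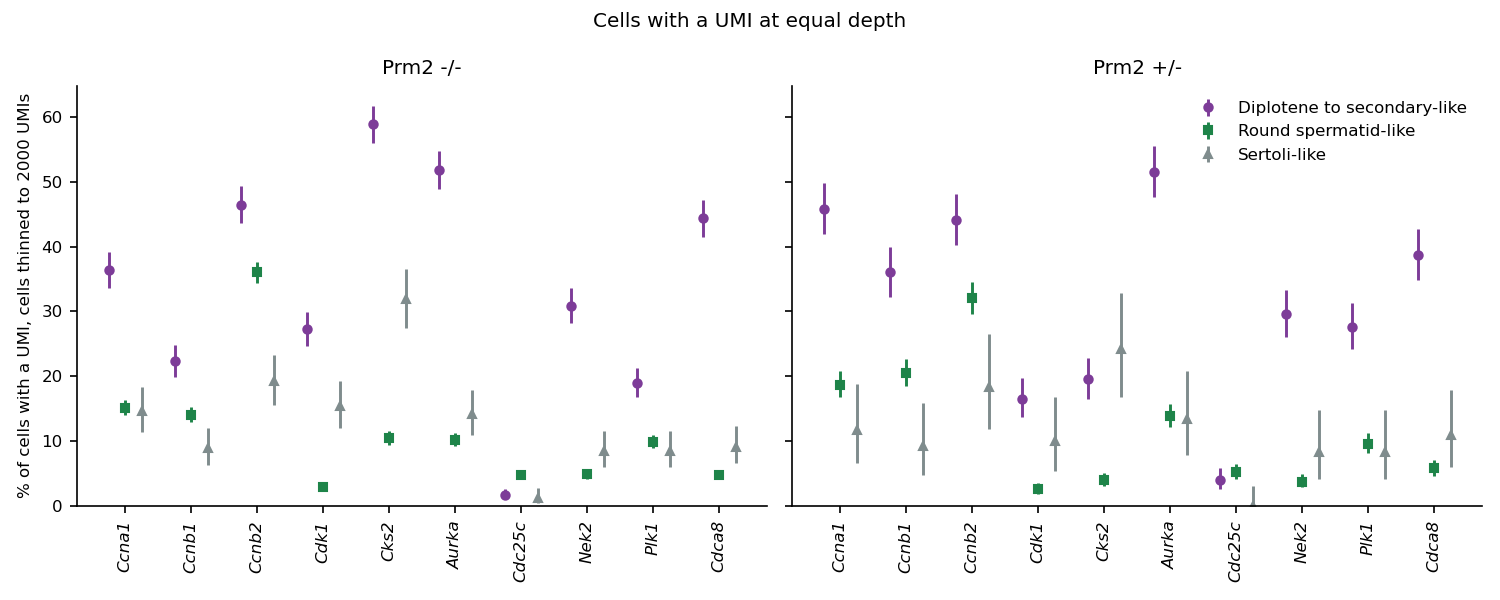
Percentage of cells with at least 1 UMI of each member after thinning to 2000 UMIs, in diplotene-to-secondary-like (circles), round-spermatid-like (squares) and Sertoli-like cells (triangles) of the Prm2 -/- library (left) and the Prm2 +/- library (right), with exact Clopper-Pearson 95% intervals. Aurka is at 51.9% and 51.6% of diplotene-to-secondary-like cells, and Cks2 is at 58.9% in the Prm2 -/- library but at 19.5%, near the Sertoli-like share, in the Prm2 +/- library.

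Between the genotypes, Cks2 was the member that differed most. It was higher in the Prm2 -/- library in all 6 germ cell classes, with log2 ratios of Prm2 -/- over Prm2 +/- of 0.51 (0.27 to 0.76) in spermatogonia-like cells, 0.85 (0.67 to 1.04) in early-spermatocyte-like cells, 0.82 (0.76 to 0.87) in pachytene-like cells, 1.86 (1.78 to 1.94) in diplotene-to-secondary-like cells, 1.39 (1.22 to 1.56) in round-spermatid-like cells and 2.31 (2.05 to 2.59) in elongating-spermatid-like cells. In both spermatid classes Cks2 lay below its Sertoli-like levels of 246 and 100.3 CPM. It had 55.3 and 21.1 CPM in round-spermatid-like cells and 66.2 and 13.3 CPM in elongating-spermatid-like cells. Cks2 was also higher in each of the 27 clusters where its level could be compared, by 0.37 to 2.90 on the log2 scale. A cluster could enter this count through the Prm2 -/- library alone, which favours a large ratio. The clusters come from the same libraries and do not repeat the comparison of genotypes. The share of all genes that were higher in each cluster is not given here. Cks2 counts in somatic cells, which can come from free RNA, went in the same direction. Sertoli-like cells had a log2 ratio of 1.30 (1.05 to 1.55). Leydig-like cells, with 127 CPM in the Prm2 -/- library and 37.0 CPM in the Prm2 +/- library (128 and 28 UMIs), had a log2 ratio of 1.78 (1.18 to 2.42). A difference in the somatic cells themselves was not tested.

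The size of the Cks2 difference in diplotene-to-secondary-like cells depended on which clusters were summed. Most Prm2 -/- cells of the class lay in clusters 11, 16 and 12 (503, 403 and 341 cells), and most Prm2 +/- cells in clusters 11 and 30 (323 and 278 cells). Within clusters the log2 ratio was 1.097 in cluster 16, 0.93 in cluster 12, 1.51 in cluster 11 and 1.43 in cluster 30. Cluster 16 had a median of 12982 UMIs per cell in the Prm2 -/- library and 1861 in the Prm2 +/- library, and the part of this depth difference in the ratios was not tested. The ratio stayed at 1.12 or more under the 12 other settings.

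In most of the classes where it could be compared, Cdk1 was also higher in the Prm2 -/- library. In spermatogonia-like cells it had 106 CPM (93.6 to 121) there and 49.0 CPM (36.1 to 64.9) in the Prm2 +/- library, a log2 ratio of 1.12 (0.67 to 1.60), and the ratio was between 1.102 and 1.19 under 10 other settings. In early-spermatocyte-like cells the ratio was 0.12 (-0.24 to 0.48), with an interval that includes 0. It was 0.79 (0.60 to 0.99) in pachytene-like cells and 0.63 (0.52 to 0.74) in diplotene-to-secondary-like cells, short of 2-fold. Sertoli-like cells again showed a similar difference, with 97.9 CPM in the Prm2 -/- library and 49.8 CPM in the Prm2 +/- library, a log2 ratio of 0.97 (0.61 to 1.35). The pachytene-like levels, 85.6 and 49.3 CPM, lay under these, as did the Prm2 +/- level of spermatogonia-like cells. The part of free RNA in the germ cell ratios of Cks2 and Cdk1 was not tested.

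Ccnb1 went the other way. Its log2 ratio was -0.98 (-1.08 to -0.88) in diplotene-to-secondary-like cells, -0.64 (-0.73 to -0.56) in round-spermatid-like cells and -0.58 (-1.002 to -0.15) in early-spermatocyte-like cells. In diplotene-to-secondary-like cells it was -0.997 in cluster 16 and -0.31, -0.19 and -0.38 in clusters 12, 11 and 30, and other settings gave -0.91 to -0.34. Of the 18 clusters where Ccnb1 could be compared it was lower in the Prm2 -/- library in 16, in none by 2-fold. A cluster could enter this count through 1 library alone. The clusters share the same libraries, and the share of all genes that were lower in each is not given here. Sertoli-like cells, with 56.8 CPM in the Prm2 -/- library and 78.7 CPM in the Prm2 +/- library, had a log2 ratio of -0.47 (-0.82 to -0.12). The early-spermatocyte-like levels, 50.5 and 75.4 CPM, lay under these.

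Plk1 and Ccna1 were lower in the Prm2 -/- library in diplotene-to-secondary-like cells, by less, with log2 ratios of -0.64 (-0.75 to -0.53) and -0.33 (-0.40 to -0.26). Within clusters the difference was largest in cluster 16, at -0.82 (-1.21 to -0.41) for Plk1 and -0.56 (-0.80 to -0.32) for Ccna1. In clusters 11, 12 and 30 the values were -0.092, -0.15 and -0.23 for Plk1 and 0.064, 0.059 and -0.049 for Ccna1, all with intervals that include 0. Under other settings Plk1 ranged from -0.57 to -0.071, and Ccna1 from -0.32 to 0.041. Aurka (-0.039, -0.10 to 0.026), Nek2 (-0.061, -0.15 to 0.031), Cdca8 (-0.023, -0.095 to 0.049) and Ccnb2 (0.026, -0.048 to 0.10) had intervals that include 0 in that class. In other classes compared, Nek2 intervals included 0, but those of the following ratios did not. Aurka had 0.96 in early-spermatocyte-like cells (102 and 52.7 CPM, below its Sertoli-like levels), 0.23 in pachytene-like and -0.396 in round-spermatid-like cells (53.9 and 70.9 CPM, also below them). Cdca8 had -0.34 in spermatogonia-like and -0.23 in pachytene-like cells. Ccnb2 had 0.43 in spermatogonia-like, 0.46 in early-spermatocyte-like, 0.201 in pachytene-like and 0.17 in round-spermatid-like cells. In round-spermatid-like cells Plk1 (-0.33) and Ccna1 (-0.28) turned positive under 2 of 11 other settings each. Cdc25c, below the minimum level, had a log2 ratio of -1.28 (-1.69 to -0.89) in diplotene-to-secondary-like cells. In round-spermatid-like cells it had -0.074 (-0.25 to 0.11).

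**Figure D4:**
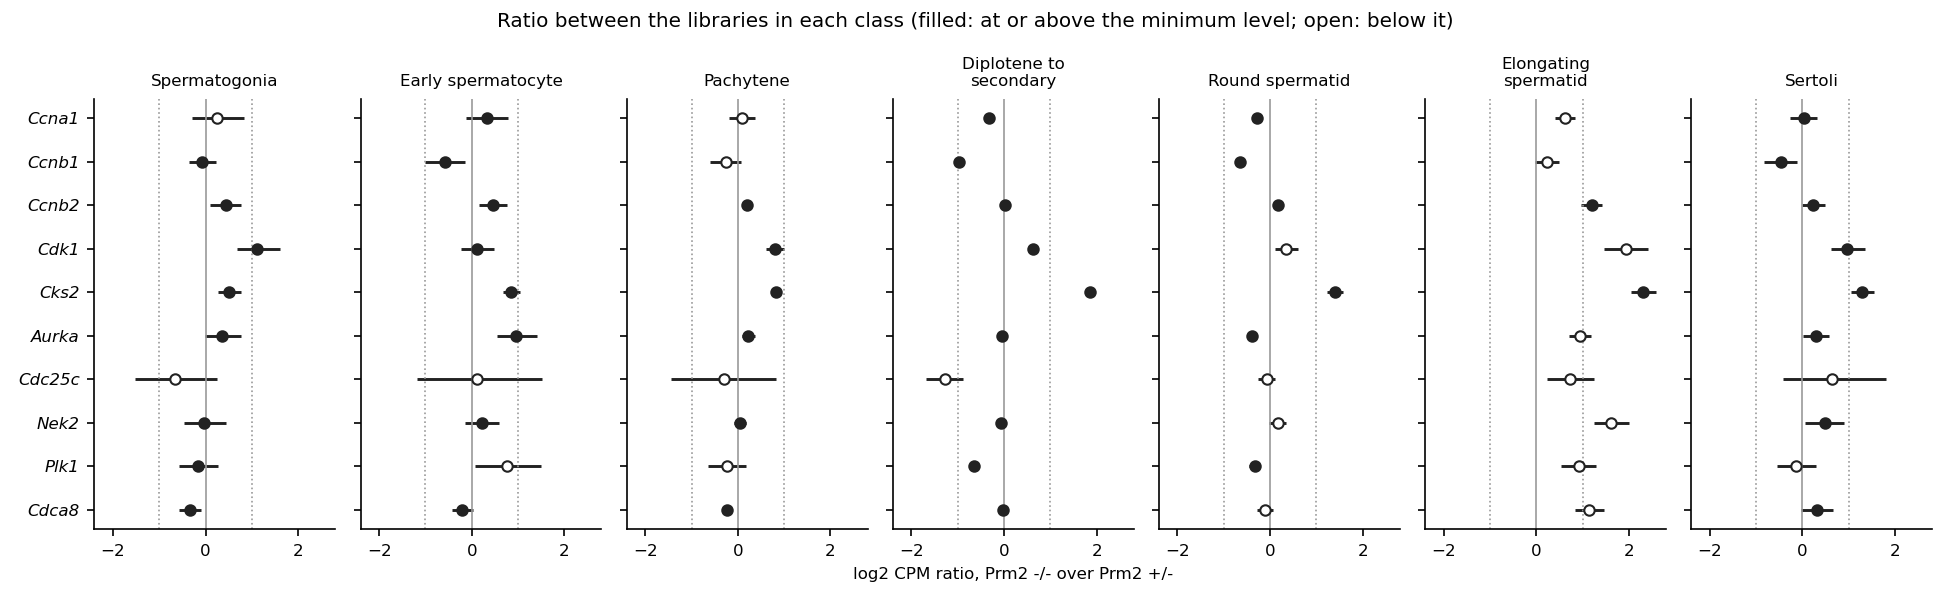
Log2 ratio of CPM, Prm2 -/- over Prm2 +/-, of each member in 6 germ cell classes and in Sertoli-like cells, with exact 95% intervals for counting error, filled points at or above the minimum level and dotted lines at 2-fold. Cks2 is right of 0 in every panel, up to 2.31 in elongating-spermatid-like cells, while Ccnb1 is left of 0 except in elongating-spermatid-like cells.

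A 2-fold difference was taken as a rule of size, for genes that reached 50 CPM in either library and had 100 or more UMIs over both. In spermatogonia-like cells 8 members could be compared and 1 (Cdk1) was 2-fold higher in the Prm2 -/- library, against 2.55% of all genes compared, and 0 were 2-fold lower, against 0.514% (3.06% either way). In early-spermatocyte-like cells 0 of 8 were 2-fold higher (2.45% of all genes) and 0 lower (0.756%, and 3.2% either way). In pachytene-like cells the counts were 0 of 6 higher (0.445%) and 0 lower (0.258%, and 0.703% either way). In diplotene-to-secondary-like cells 1 of 9 (Cks2) was higher (2.59%) and 0 lower (1.37%, and 3.96% either way). In round-spermatid-like cells 1 of 6 (Cks2) was higher (1.02%) and 0 lower (0.818%, and 1.84% either way). Cdk1 in spermatogonia-like cells (106 against 49.0 CPM) and Cks2 in round-spermatid-like cells (55.3 against 21.1 CPM) passed the minimum level through the Prm2 -/- library alone, which favours a large ratio.

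The members differed in direction. Their median log2 ratio was 0.17 in spermatogonia-like, 0.27 in early-spermatocyte-like, 0.22 in pachytene-like, -0.039 in diplotene-to-secondary-like and -0.31 in round-spermatid-like cells, and that of all genes compared lay between -0.0029 and 0.020 in these classes. The median turned to 0.032 with equal weight per cell and 0.11 with equal weight per cluster in round-spermatid-like cells, and in diplotene-to-secondary-like cells it reached 0.12. In elongating-spermatid-like cells just Cks2 (66.2 CPM in the Prm2 -/- library and 13.3 CPM in the Prm2 +/- library) and Ccnb2 (51.4 and 22.4 CPM) could be compared. Both were 2-fold higher (12.5% of all genes compared) and 0 lower (0.937%, and 13.4% either way). As both passed the minimum level through the Prm2 -/- library alone and lay below their Sertoli-like level, this count is a description only. All genes had a median of 0.26 in that class, and TMM scaling lowered every ratio there by 0.62, which leaves Ccnb2 at 0.58 and Cks2 at 1.70.

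Across the 6 germ cell classes of both libraries (12 points that share libraries and depth), some members had similar profiles and others did not. Nek2 and Cdca8 had a Pearson correlation of log2(CPM + 10) of 0.94, Cdk1 and Cdca8 of 0.92, and Cdk1 and Nek2 of 0.91. Ccnb1 and Plk1 had one of 0.93 with each other, but Plk1 and Cks2 one of 0.058. Among 6802 other genes, those with the most similar profile were Sgo2a for Cdca8 (0.998), Vdac3 for Ccnb2 (0.992), Calm2 for Cks2 (0.986), Pigo for Aurka (0.985), Kat5 for Nek2 (0.985) and Bod1 for Cdk1 (0.975). For the other members they were Ddit4l for Ccna1 (0.965), Cdc25a for Ccnb1 (0.957), Eif3b for Plk1 (0.953) and Cfap77 for Cdc25c (0.946).

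The partners and opponents of the members were read from 9 lists with 120 genes, described here in diplotene-to-secondary-like cells, where the members' summed level was highest. Of the 58 genes that could be compared there, 1 was 2-fold higher in the Prm2 -/- library (1.72%, against 2.59% of all genes) and 1 lower (1.72%, against 1.37%), shares near those of all genes. The class holds its clusters in different proportions in the libraries (cluster 30 has 99 and 278 cells), so values within clusters 11, 12, 16 and 30 stand beside the larger ratios. Of 20 genes that regulate cyclin-dependent kinases, 7 could be compared, 1 was 2-fold higher in the Prm2 -/- library and 0 were lower, with a median log2 ratio of 0.47. Cdkn2c, an inhibitor of Cdk4 and Cdk6, was the higher one, with 182 CPM in the Prm2 -/- library and 83.5 CPM in the Prm2 +/- library (1.13, 1.00 to 1.25), and 0.59 to 1.004 within clusters. Spdya, an activator of Cdk2 at meiotic telomeres, had 358 and 259 CPM (0.47, 0.39 to 0.54). Cdkn3, a phosphatase that removes the activating phosphate of Cdk1 and Cdk2, had 304 CPM in the Prm2 -/- library and 554 CPM in the Prm2 +/- library (-0.87, -0.93 to -0.81), and -0.68 to -0.47 within clusters, lower in each of the 4 as Ccnb1 was.

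Of the 22 genes of the anaphase-promoting complex and of mitotic exit, 12 could be compared and 0 differed 2-fold (median 0.17). The complex ends each division by marking the B-type cyclins and securin for destruction. Its ubiquitin-chain enzyme Ube2s had 1498 CPM in the Prm2 -/- library and 1326 CPM in the Prm2 +/- library, its activator Cdc20 380.2 and 300.1 CPM, and its target Pttg1 (securin) 311 and 223 CPM. Log2 ratios of the 3 were 0.18, 0.34 and 0.48. Of 6 genes of the passenger complex and of Aurora regulation, 5 could be compared and 0 differed 2-fold (median 0.24). Birc5 (survivin), which binds Cdca8 in the complex, had 333.1 and 283 CPM, and Incenp, its scaffold, 69.3 and 99.9 CPM (-0.53, -0.66 to -0.39), with -0.47 to 0.18 within clusters.

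Of 13 checkpoint and kinetochore genes, 9 could be compared and 0 differed 2-fold (median -0.034). Bub3, a checkpoint protein at kinetochores, had 158 CPM in the Prm2 -/- library and 91.0 CPM in the Prm2 +/- library (0.79, and 0.38 to 0.76 within clusters). Spc25, a subunit of the Ndc80 complex, had 62.8 and 104 CPM (-0.73, and -0.97 to -0.20 within clusters). Of 20 spindle motor and cytokinesis genes, 10 could be compared and 0 differed 2-fold (median -0.20). Cenpe, a kinesin that brings chromosomes to the spindle equator, had 122 and 233 CPM (-0.93, -1.03 to -0.84), and Cenpf, a kinetochore protein, 311 and 471 CPM (-0.60). Within clusters Cenpe, itself a leading gene of cluster 30, ranged from -0.72 to -0.31 and Cenpf from -0.59 to -0.21, smaller than in the class as a whole.

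Of 8 cohesion genes, 4 could be compared and 1 was 2-fold lower in the Prm2 -/- library (1.37% of all genes compared). The lower gene was Smc3, a cohesin subunit, with 23.9 CPM in the Prm2 -/- library and 51.8 CPM in the Prm2 +/- library (-1.12, -1.33 to -0.91). Smc3 passed the minimum level through the Prm2 +/- library alone, and within clusters its ratio was -0.62 to 0.0074, in none of them 2-fold, while the meiotic subunit Smc1b had 346 and 324 CPM (0.094). Of 10 further regulators of the meiotic divisions, 7 could be compared and 0 differed 2-fold (median 0.045), with Hspa2, the chaperone that mouse spermatocytes need for active Cdk1, at 1470 and 1136 CPM (0.37). Of 12 other cyclins and kinases 4 could be compared and 0 differed 2-fold (median 0.16). Of 9 mitotic and interphase cyclins 0 reached the minimum level in that class, where Ccnh, part of the Cdk-activating kinase, had 37.5 and 18.5 CPM.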

How the data were processed

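Per the labels, dissociated whole testis cells of each genotype went into 1 library of a 10x Genomics droplet kit that reads the 3′ end of polyA RNA. The deposited matrices hold UMI counts (unique molecular identifiers, whole numbers) per gene and barcode, which the file headers credit to Cell Ranger 7.1.0. Seurat 4.1.0 and the mm10 build are named per the submitters' processing notes, without what Seurat did. The deposited barcodes started at 500 UMIs. Positions and overlaps come from GENCODE M21, promoter sequences from RefSeq GRCm38.p6.

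Barcodes needed 500 UMIs, 250 genes and a mitochondrial share of 20% or less, which left 22503 of 22885 (Prm2 -/-) and 15038 of 15210 (Prm2 +/-). Scrublet scores were computed in each library in scanpy 1.11.5 (expected rate 0.8% per 1000 barcodes). The planned automatic threshold marked 15.6% of the Prm2 -/- cells and 0 of the Prm2 +/- cells, so it had not worked. The 10% of cells with the highest scores were removed from each library instead, a change made after seeing the data. Barcodes with over 1% hemoglobin UMIs were left out. Clusters came from 2000 variable genes chosen and scaled within each library, reduced to 30 principal components and joined through 20 neighbours, at a Leiden resolution of 2. The 10 genes described, the 9 pathway lists, protamine and transition protein genes, Xist, mitochondrial and Y genes took no part in the clustering. Clusters were named from 14 marker sets by a scoring rule that was set after the data were seen: the best set's mean standardized level was at least 0.5 and 0.15 ahead of the next, at least 3 of its markers passed 10 CPM, and no other set held more of the 10 leading genes. A cluster whose median UMI count was under that of its library divided by 3, with none of its markers in front, stayed unnamed.

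UMIs were summed over each class and library and scaled to 1000000 UMIs (CPM). The 95% intervals are exact and cover counting error only: Poisson for sums, conditional binomial for ratios, Clopper-Pearson for shares. Ratios were read for genes that reached 50 CPM in either library and had 100 or more UMIs over both, and 2-fold is a rule of size. The ratios were not tested, because a genotype is a single library here. The size rule was also run on simulated counts with known changes, at the depth of round-spermatid-like cells. The simulation used changes larger than 2-fold in genes well above the minimum level. Smaller changes, genes near that level and shallower classes were not covered. Shares were taken after thinning cells to 2000 UMIs. The members and lists were chosen with earlier results of these data known. Named genes were the members, up to 3 genes of each list with the highest level in the class where the members' summed level is highest, up to 3 with the largest ratio in any class, and the 3 genes most like each member. Alternatives covered the filters, doublets, resolution, scaling, TMM factors of edgeR 4.0.16, weighting, minimum CPM and thinning depth. Other tools were R 4.3.3, scipy 1.17.1 and igraph 0.11.9.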

Additional observations from a re-analysis of the deposited data

How the results depend on the processing

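No paired analysis was possible because each genotype has 1 library. Of the counts, medians and stage summaries, 198 values under other settings stayed within the limits set for them and 39 moved. The cause was not tested unless stated. For the members' median log2 ratio in diplotene-to-secondary-like cells (-0.039 as reported), at least 1000 UMIs per cell gave 0.084, automatic doublet thresholds 0.042, resolution 1 0.048, equal weight per cell 0.12, equal weight per cluster 0.097, and leaving out cluster 16 0.039. In round-spermatid-like cells (-0.31 as reported) the same first 3 settings gave -0.092, -0.42 and -0.20, resolution 3 gave -0.19, equal weight per cell 0.032, equal weight per cluster 0.11, and leaving out clusters 2 and 3 -0.43. In pachytene-like cells (0.22 as reported) resolution 1 gave 0.41.

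In elongating-spermatid-like cells, where only 2 members passed the minimum level, the median (1.75 as reported) was 2.21 with at least 1000 UMIs, 2.24 with at most 10% mitochondrial UMIs, 1.17 with no doublets removed, 2.09 with automatic thresholds, 2.24 at resolution 1, 2.32 at resolution 3, 1.14 with TMM factors and 1.205 with equal weight per cluster. The 2 members that were 2-fold higher there became 1 with at least 1000 UMIs, at most 10% mitochondrial UMIs, automatic thresholds, resolutions 1 and 3, and TMM factors. They became 5 at a minimum of 10 CPM and 0 at 200 CPM. In early-spermatocyte-like cells the count of 0 became 1 with at most 10% mitochondrial UMIs, no doublets removed, automatic thresholds and resolution 3, and 2 with equal weight per cluster. At a minimum of 200 CPM the 1 spermatogonia-like call (Cdk1) and the 1 round call (Cks2) became 0, and the round call also became 0 without clusters 2 and 3, where the fewer genes above the minimum left Cks2 out. At 10 CPM 1 member (Cdc25c) was 2-fold lower in diplotene-to-secondary-like cells.

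Of the ratios of named members, 301 stayed within their counting interval and 113 moved, with no call turned round. Automatic thresholds and the classes without clusters 16, 30, 2 and 3 were chosen after seeing the data. Depth limits Cdc25c most, with under 50 CPM in every class.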

Other observations

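Outside the class where the members were highest, few genes of the 9 lists differed by the same rule of size. In spermatogonia-like cells 2 of 83 genes compared were 2-fold higher in the Prm2 -/- library (2.41%, against 2.55% of all genes), in early-spermatocyte-like cells 1 of 72 (1.39%, against 2.45%) and in pachytene-like cells 1 of 59 (1.69%, against 0.445%), with 0 lower in these classes. These shares are at or under those of all genes in the first 2 classes, and the 4 genes passed the minimum level through the Prm2 -/- library alone, which favours a large ratio. In spermatogonia-like cells Cdkn2d, an inhibitor of the kinases that drive entry into S phase, had 69.8 CPM in the Prm2 -/- library and 27.5 CPM in the Prm2 +/- library, a log2 ratio of 1.34 (0.75 to 1.99). Cdc26, a small subunit of the anaphase-promoting complex, had 52.6 and 25.5 CPM there, a log2 ratio of 1.04 (0.41 to 1.73). Ccnd3, a D-type cyclin, was on the other side, with 56.9 CPM in the Prm2 -/- library and 105.1 CPM in the Prm2 +/- library (log2 ratio -0.89, -1.27 to -0.50), short of 2-fold. In early-spermatocyte-like cells Pttg1, the separase inhibitor securin, had 90.05 CPM in the Prm2 -/- library against 35.4 CPM in the Prm2 +/- library (log2 ratio 1.34, 0.84 to 1.88). Ccnb3, a B-type cyclin, had 58.8 and 105.4 CPM in the same class, a log2 ratio of -0.84 (-1.22 to -0.47), also short of 2-fold. In pachytene-like cells Cdk2, a kinase that sits at telomeres and crossover sites of meiotic chromosomes, had 50.001 CPM in the Prm2 -/- library and 24.99 CPM in the Prm2 +/- library (log2 ratio 1.0006, 0.73 to 1.28), at the limit of the rule.

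In elongating-spermatid-like cells 4 of 18 listed genes were 2-fold higher in the Prm2 -/- library (22.2%, against 12.5% of all genes compared there). They were Pabpc1, a polyA-binding protein (log2 ratio 1.39), Smc1b, a meiotic cohesin subunit (1.32), Hspa2, the testis heat shock protein (1.26), and Ccnk, a cyclin of transcriptional kinases (1.07). TMM scaling lowers every ratio in that class by 0.62, which takes all 4 under 2-fold. No other list had a gene past 2-fold in that class.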
